A study of Rattus norvegicus with 47 samples.

Results

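The genes described here are 8 erythroid and reticulocyte genes, measured in the blood of rats after occlusion of the middle cerebral artery (MCA), which starves part of the brain of blood and models ischaemic stroke. They are Alas2, Slc4a1, Epb42, Ahsp, Klf1, Gata1, Tfrc and Fech. They were chosen by name as genes of red cell formation, not by their values, although earlier results of these data were known when they were listed. Each symbol was found in the annotation of the deposited table, and each had 1 probe set, so the 8 genes are 8 of 27596 probe sets. The samples came from 8 male SHR rats (the spontaneously hypertensive rat, an inbred strain with high blood pressure) aged 16 weeks, each sampled at 0, 1, 2, 3, 6 and 24 h post MCA occlusion, with 1 sample missing at 6 h. That gave 47 arrays, 8 at each time point but 7 at 6 h. The 0 h sample was drawn before anaesthesia began, so every later sample followed both anaesthesia and surgery. The occlusion was transient, and blood flow was restored under a further anaesthesia between the 1 h and 2 h samples. There was no sham-operated group.

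The way the blood was taken bears on red cell genes. At 0, 1, 2, 3 and 6 h, 250 µl were drawn from a tail vein into heparin, which makes 1250 µl in a rat with all 5 draws. By 1, 2, 3 and 6 h a rat had given 1, 2, 3 and 4 earlier samples, and by 24 h 4 or 5. The 24 h blood was taken by heart puncture after an overdose of anaesthetic. Time after occlusion, blood already withdrawn, from 2 h on the restored blood flow and further anaesthesia, and, at 24 h, the site of sampling therefore changed together and cannot be told apart in these data. RNA was made from the blood cell pellet left after plasma was removed, and globin RNA removal is not mentioned in the sources used here.

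Red cells form in the bone marrow, where precursors build haemoglobin and then expel the nucleus. The cell that leaves the marrow, the reticulocyte, has no nucleus but still carries RNA, which it loses as it matures in the circulation, so red cell transcripts in blood come largely from these young cells. Loss of blood is known to raise erythropoietin and, over days, reticulocyte output. In whole blood RNA, a change in the number of reticulocytes cannot be told apart from a change in the RNA each one carries, nor from a change in the RNA that white cells add to the sample.

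The 8 genes cover several steps of this programme. Alas2 encodes the erythroid form of 5-aminolaevulinate synthase, the first enzyme of haem synthesis, and Fech encodes ferrochelatase, the last. Tfrc encodes the transferrin receptor, through which iron enters the cell, and it is also made by other dividing cells. Slc4a1 encodes band 3, the anion exchanger of the red cell membrane, and Epb42 encodes a protein of the membrane skeleton that binds it. Ahsp encodes a chaperone of free alpha globin. Klf1 and Gata1 encode transcription factors that switch on most erythroid genes, and Gata1 also works in megakaryocytes, the cells that shed platelets.

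The upstream sequences of 3 of the genes are shown because GATA1 and KLF1 bind short motifs found near many erythroid promoters. Each is the 250 bases before the gene's annotated start, read 5′ to 3′ on the gene's strand, from RefSeq on GRCr8. Capitals mark any GATAA (the core of a GATA site) or CACCC (the core of a KLF site) on either strand, so TTATC and GGGTG are the same motifs on the opposite strand, and the 2 motifs share no overlapping match here. The positions are chr19:40158652-40158901 for Klf1, chr11:81690319-81690568 for Tfrc and chr3:128451684-128451933 for Epb42, all on the minus strand.
Klf1: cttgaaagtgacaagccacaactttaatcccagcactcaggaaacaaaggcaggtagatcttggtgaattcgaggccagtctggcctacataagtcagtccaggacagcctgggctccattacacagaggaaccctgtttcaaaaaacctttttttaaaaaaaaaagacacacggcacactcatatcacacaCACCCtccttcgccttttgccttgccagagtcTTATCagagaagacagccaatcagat
Tfrc: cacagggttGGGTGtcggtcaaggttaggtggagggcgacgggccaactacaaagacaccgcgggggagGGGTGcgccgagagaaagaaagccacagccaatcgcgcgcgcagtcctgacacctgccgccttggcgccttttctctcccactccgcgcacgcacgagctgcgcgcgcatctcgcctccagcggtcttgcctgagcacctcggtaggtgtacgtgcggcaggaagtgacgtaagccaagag
Epb42: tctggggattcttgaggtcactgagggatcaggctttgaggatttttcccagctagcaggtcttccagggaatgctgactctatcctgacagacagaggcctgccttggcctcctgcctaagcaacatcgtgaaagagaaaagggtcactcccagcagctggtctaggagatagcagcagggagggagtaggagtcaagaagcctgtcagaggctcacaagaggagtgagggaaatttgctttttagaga

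The Klf1 window held both motifs, a CACCC that begins 58 bases before the start and a GATAA on the opposite strand that begins 26 bases before it. The Tfrc window held 2 CACCC matches on the opposite strand, 241 and 181 bases before the start, and no GATAA. The Epb42 window held neither. Fech, whose window is not printed, had 1 GATAA on the opposite strand, 135 bases before its start. Of all 33469 rat windows of this length, 23.5% held a GATAA, 49.2% a CACCC and 9.59% both, so a single match is common. The windows listed for Alas2 and Gata1 do not end at the start of the annotated gene and are not described further, and Slc4a1 and Ahsp were matched to no window. A match is a description of the letters only, and its bearing on the levels in blood was not tested.

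All values below are log2 RMA signals, on which a difference of 1 is a doubling, and the table holds for each time point the authors' mean and SD over its arrays. Signals of different probe sets do not compare as amounts of RNA, so each gene is compared only with itself. Changes were tested with limma's moderated test built from the means and SDs of the table and the number of arrays, with Benjamini-Hochberg adjustment over all 27596 probe sets and a threshold of 0.05. That test takes the arrays as independent, although the same rats returned at each time point. Levels are listed in the order 0, 1, 2, 3, 6 and 24 h, each with its SD (n = 8, but 7 at 6 h), and positions of probe sets are those of the table's annotation on rn5.

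Tfrc, the iron uptake receptor, had the widest range of the 8. Its probe set, 10754785, covers chr11:74482209-74497508 on the minus strand. The means were 8.16 ± 0.12, 8.39 ± 0.26, 8.01 ± 0.37, 8.15 ± 0.28, 7.59 ± 0.29 and 9.37 ± 0.37. The first 4 means lay between 8.01 and 8.39, 6 h lay below all others and 24 h above all others. At 6 h Tfrc had fallen by 0.56 from 0 h (95% interval -0.86 to -0.27, adjusted p = 0.00144 by limma). At 24 h it was 1.21 above 0 h (0.93 to 1.49, adjusted p = 7.11e-09 by limma), which is 2.32-fold. Between 6 h and 24 h it rose 3.43-fold.

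Of the haem enzymes, Fech moved and Alas2 hardly did. Fech (probe set 10804875, chr18:59152620-59185341, minus strand) had means of 12.44 ± 0.10, 12.57 ± 0.06, 12.45 ± 0.07, 12.49 ± 0.08, 12.33 ± 0.13 and 12.66 ± 0.10. Its SDs were small, and the rises of 0.14 at 1 h (0.04 to 0.24) and 0.22 at 24 h (0.12 to 0.32) passed the test, with limma adjusted p-values of 0.0285 and 0.00074. The rise at 1 h did not pass after centring (0.088) or quantile normalization (0.12). Alas2 (probe set 10932912, chrX:23587802-23597181, minus strand) had means of 13.39 ± 0.08, 13.42 ± 0.05, 13.38 ± 0.06, 13.35 ± 0.06, 13.29 ± 0.06 and 13.40 ± 0.07. The whole range of its means was 0.14, and the fall of 0.11 at 6 h (-0.19 to -0.03, limma adjusted p = 0.0294) was the only change from 0 h that passed. Its means sat just under 13.6, the highest mean of any probe set in the table. Among these 8 genes and the 113 other erythroid probe sets described below, the 10 with a mean of 13 or more had a median range over time of 0.14, against 0.49 for the other 111. Over all probe sets the same split gave 0.11 for 45 probe sets and 0.26 for the rest. Whether signal still follows the amount of RNA at such levels was not tested.

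Both membrane genes rose at 1 h and again at 24 h. Slc4a1 (probe set 10747813, chr10:90084738-90101181, minus strand) stood at 11.94 ± 0.11, 12.28 ± 0.09, 12.11 ± 0.17, 12.07 ± 0.11, 11.71 ± 0.33 and 12.51 ± 0.24. Its mean rose by 0.34 at 1 h (0.15 to 0.53, limma adjusted p = 0.00336), more than 3 times the higher of the SDs at 0 and 1 h, and was 0.58 above 0 h at 24 h (0.39 to 0.76, limma adjusted p = 5.11e-06). At 6 h it was 0.23 below 0 h, just outside the threshold (limma adjusted p = 0.0511). Epb42 (probe set 10848962, chr3:119510329-119528074, minus strand) stood at 11.26 ± 0.18, 11.63 ± 0.20, 11.41 ± 0.19, 11.53 ± 0.10, 11.13 ± 0.27 and 11.70 ± 0.22. It rose by 0.37, 0.27 and 0.45 at 1, 3 and 24 h, with limma adjusted p-values of 0.00207, 0.018 and 0.000415.

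Gata1 had the largest early rise. Its means, from probe set 10932468 at chrX:16155981-16163807 on the plus strand, were 9.73 ± 0.33, 10.40 ± 0.26, 10.05 ± 0.27, 10.08 ± 0.15, 9.67 ± 0.31 and 10.06 ± 0.21. At 1 h it was 0.67 above 0 h (0.42 to 0.93, limma adjusted p = 4.46e-05), or 1.59-fold, and smaller rises passed at 2, 3 and 24 h. Its mean at 24 h was 0.34 below that at 1 h, which did not pass (limma adjusted p = 0.111). Klf1, the other transcription factor (probe set 10810036, chr19:36992051-36994839, plus strand), stood at 9.28 ± 0.24, 9.56 ± 0.11, 9.43 ± 0.22, 9.48 ± 0.16, 9.21 ± 0.26 and 9.53 ± 0.17. It rose by 0.28 at 1 h and 0.25 at 24 h, with limma adjusted p-values of 0.019 and 0.042. After centring, its rise at 1 h was 0.23 and did not pass (limma adjusted p = 0.0598). The rises of Gata1 and Klf1 at 24 h were each about the size of 1 SD at 0 h. Neither passed when only the SDs of 0 and 24 h entered the test, nor after the time points were centred on their medians, and the rise of Gata1 at 2 h was lost under the same alternatives.

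Ahsp, the globin chaperone, showed no change from 0 h that passed. Its means, from probe set 10711396 at chr1:206767543-206768079 on the plus strand, were 11.30 ± 0.19, 11.41 ± 0.21, 11.33 ± 0.18, 11.37 ± 0.23, 11.11 ± 0.43 and 11.46 ± 0.22. Its SD at 6 h was 2.29 times that at 0 h and was the largest SD of any of the 8 genes at any time. The 95% interval of its change at 24 h ran from -0.08 to 0.41, so a rise as large as that of Gata1 at this time lies within it.

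**Figure D1:**
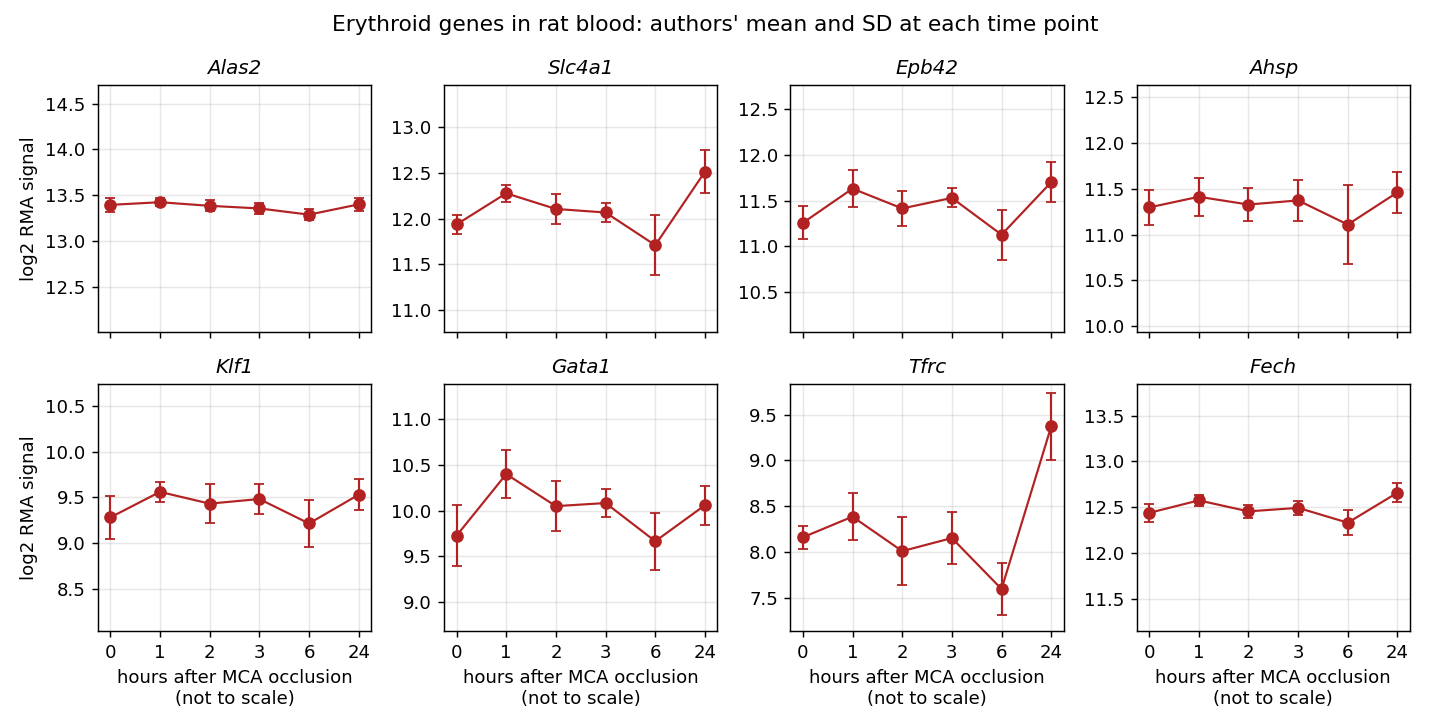
Each panel plots the authors' mean log2 RMA signal of 1 gene against hours after MCA occlusion, with bars for the SD over 8 arrays (7 at 6 h), and all panels span the same number of log2 units. All 8 genes have their lowest mean at 6 h, Tfrc has its highest at 24 h (9.37), Gata1 at 1 h (10.40), and Alas2 is close to flat.

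Over the 6 time points together, 6 of the 8 genes passed the moderated F-test, beside 55.5% of all probe sets, so passing it sets them little apart. The adjusted p by limma was 3.57e-13 for Tfrc, 1.87e-08 for Slc4a1, 9.68e-06 for Epb42, 1.23e-05 for Fech, 3.81e-05 for Gata1 and 0.00994 for Klf1. Alas2 (limma adjusted p = 0.0516) and Ahsp (0.157) did not pass. At the stricter unadjusted threshold of 5e-07, 2 genes passed, Tfrc and Slc4a1, beside 13.5% of all probe sets. Alas2 lay so close to the threshold that 5 of the alternatives tried put it past.

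What the 8 genes shared was the shape over time. In each of them the mean was higher at 1 h than at 0 h, lower at 2 h than at 1 h, lower at 6 h than at 3 h and higher at 24 h than at 6 h. That order held in 15.2% of all probe sets. These steps were picked after the values had been seen, and the step from 2 to 3 h, at which 6 means were higher and 2 lower, is left out, so 8 of 8 is a description, and nothing is read from it against the share of all probe sets. The lowest of the 6 means fell at 6 h in 8 of 8 genes and in 17.3% of all probe sets. The highest fell at 24 h in Slc4a1, Epb42, Ahsp, Tfrc and Fech, and at 1 h in Alas2, Klf1 and Gata1. These are orders of means, of which single steps were often smaller than the SDs.

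At 1 h post MCA occlusion, after 1 earlier draw, all 8 means were above 0 h, as were 60.7% of all probe sets. The median rise of the 8 was 0.25. The rise passed in 5 of 8 (Gata1, Epb42, Slc4a1, Klf1 and Fech), beside 21.7% of all probe sets called higher. After centring on the medians 7 were above and 3 passed, with Alas2 0.02 below 0 h, beside 12.6% of all probe sets. By 2 h, 6 means were above 0 h, beside 60.8% of all probe sets, and 1 gene passed, Gata1, beside 21.7% called higher. After centring, or with the SDs of 0 and 2 h alone, 0 passed, beside 16.1% and 21.2% of all probe sets. At 3 h, 6 means were again above 0 h, beside 62.4% of all probe sets. The rise passed in 2 genes, Epb42 and Gata1, beside 27.3% of all probe sets. After quantile normalization 3 passed at 3 h, beside 19.5% of all probe sets, and after centring 2, beside 19.1%. The median changes at 2 and 3 h were 0.09 and 0.10.

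At 6 h, after 4 earlier draws, all 8 means lay below 0 h, as did 39.9% of all probe sets. The 8 means fell by a median of 0.12, with changes of -0.56 to -0.06. They lay below after centring and after quantile normalization too, while the median of all probe sets was 0.05 above 0 h. The fall passed in 2 of 8, Tfrc and Alas2, beside 19.3% of all probe sets called lower, and centring brought this to 4 with Slc4a1 and Fech, beside 21.0% of all probe sets. At 24 h all 8 means were above 0 h, as were 59.8% of all probe sets, and the median rise of the 8 was 0.29. Alas2, however, 0.01 above, was 0.04 below after centring and level after quantile normalization. The rise passed in 6 of 8 (Tfrc, Slc4a1, Epb42, Fech, Gata1 and Klf1), beside 17.4% of all probe sets called higher. After centring 4 passed, beside 9.96% of all probe sets.

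**Figure D2:**
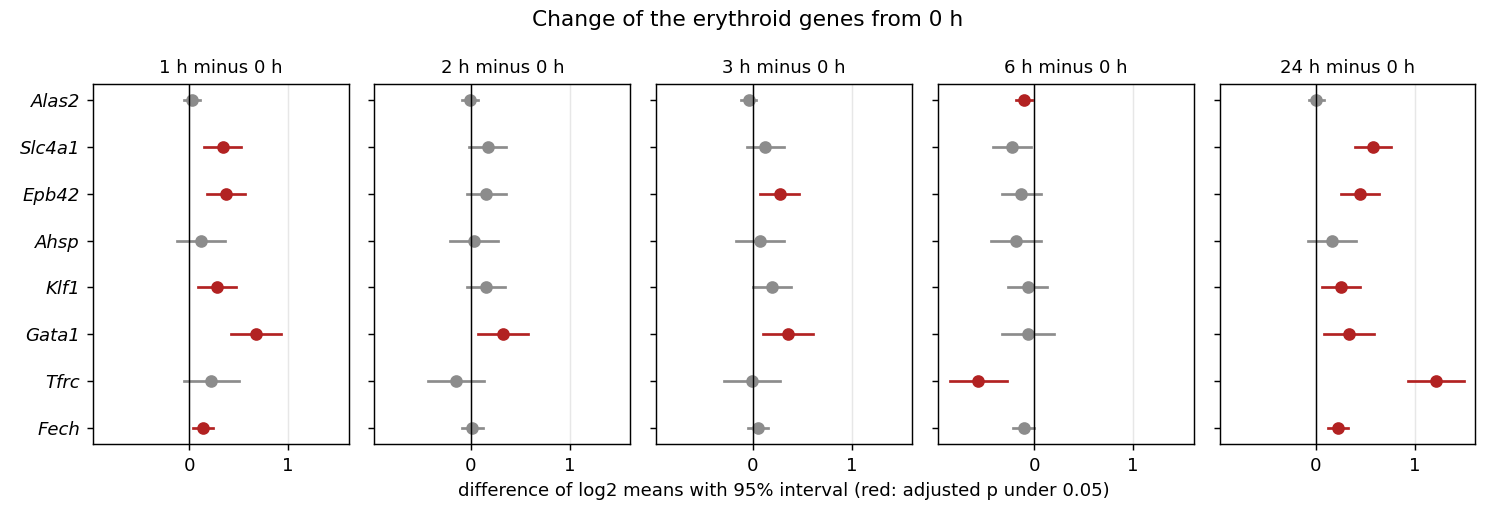
The panels plot the change of each gene's log2 mean from 0 h at 1, 2, 3, 6 and 24 h, with the 95% interval, in red where the limma adjusted p is under 0.05 and in grey otherwise. At 1 h 5 intervals are red and above 0, at 6 h those of Tfrc and Alas2 are red and below 0, and at 24 h 6 are red and above 0.

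The steps between neighbouring time points, which are set against a different baseline, show when the levels turned. From 1 to 2 h, the step across which blood flow was restored, all 8 means were lower, as were 55.6% of all probe sets. The median fall of the 8 was 0.15. By limma 0 of 8 passed, beside 4.11% of all probe sets called lower, and 4 had an unadjusted p under 0.05, beside 11.7% of all probe sets. With the SDs of these times alone 1 passed, Fech, beside 3.12% of all probe sets called lower. The same gene passed after quantile normalization, beside 3.43%. From 2 to 3 h none passed by limma at either an adjusted or an unadjusted p of 0.05, beside 1.9% of all probe sets called higher and 1.62% lower.

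From 3 to 6 h all 8 means fell, as did 55.1% of all probe sets. The median fall of the 8 was 0.31, which was more than their median fall below 0 h. The fall passed in 3 of 8, Tfrc (-0.56), Epb42 (-0.40) and Slc4a1 (-0.36), beside 2.44% of all probe sets called lower, and 7 had an unadjusted p under 0.05, beside 9.78% of all probe sets. When only the SDs of 3 and 6 h entered the test, which also leaves fewer degrees of freedom, 0 passed, beside 0.464% of all probe sets. Quantile normalization gave 4, beside 2.36% of all, and leaving out the 25% of probe sets with the lowest signal gave 5, beside 3.44%. From 6 to 24 h the rise passed in all 8, beside 10.2% of all probe sets called higher. It was 1.78 for Tfrc, 0.80 for Slc4a1, 0.57 for Epb42, 0.39 for Gata1, 0.35 for Ahsp, 0.33 for Fech, 0.31 for Klf1 and 0.11 for Alas2. With the SDs of 6 and 24 h alone, 5 of the 8 passed, beside 5.93% of all probe sets, and Ahsp, Klf1 and Gata1 did not. This last step is also the one at which the sampling site changed from tail vein to heart.

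The 24 h means were also set against 1 h, a comparison added after the values had been seen. Tfrc was 0.99 higher at 24 h (0.71 to 1.27, limma adjusted p = 1.22e-06) and was the 1 gene of 8 that passed, beside 2.6% of all probe sets called higher. Slc4a1 was 0.24 higher and Gata1 0.34 lower, each with an unadjusted p under 0.05 that did not survive adjustment. For the other 5 the difference was smaller, the largest being 0.08 for Fech.

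The arrays of 6 h differed more among themselves in most of these genes. In time order, the median SD of the 8 genes was 0.15, 0.15, 0.19, 0.13, 0.28 and 0.21. Over all probe sets it stayed between 0.14 and 0.16. At 6 h the SD was above that of 0 h in 6 of 8 genes, the exceptions being Alas2 and Gata1, against 57.7% of all probe sets. For Slc4a1 it was 3.1 times that at 0 h, for Tfrc 2.31 times and for Ahsp 2.29 times. The SD of Tfrc was higher still at 2 and 24 h, at 0.37 each against 0.29 at 6 h. In 5 of 8 genes, Slc4a1, Epb42, Ahsp, Klf1 and Fech, the highest of the 6 SDs was at 6 h, as in 23.1% of all probe sets. No test of these SDs was run, and which rats lay apart at 6 h cannot be read from the means and SDs.

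**Figure D3:**
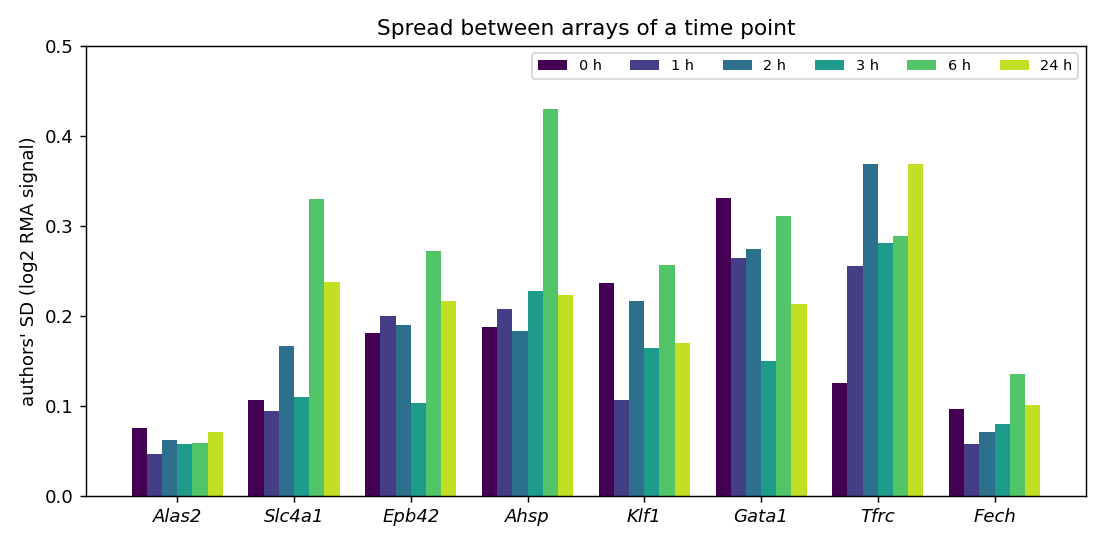
Bars show the authors' SD of the log2 RMA signal over the 8 arrays of a time point (7 at 6 h), from 0, for each gene. The bar of 6 h is the tallest in Slc4a1, Epb42, Ahsp, Klf1 and Fech, reaching 0.43 in Ahsp, while that of 2 h, level with 24 h, is tallest in Tfrc and that of 0 h in Alas2 and Gata1.

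Among themselves the 8 genes followed like courses. Over the 6 means the 28 pairs had a median Pearson r of 0.85, from 0.43 for Gata1 with Tfrc to 0.98 for Slc4a1 with Fech. Epb42 had the highest median r with the other 7, at 0.95, followed by Fech, Slc4a1 and Ahsp at 0.94 and 0.92 and 0.92. Alas2 and Gata1 had the lowest, 0.71 and 0.72. These values describe 6 points that share the same rats and arrays, and they carry no test.

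The genes most like Alas2 over the 6 means, of 11047 probe sets with 1 symbol and a mean above the median, were Mospd3 (r = 0.992), R3hdm1 (0.990), Cbfa2t2 (0.989), Bcap31 (0.988) and Psenen (0.981). At 6 h these 5 genes had fallen by 0.46, 0.48, 0.26, 0.18 and 0.17 in that order, against 0.11 for Alas2. Bcap31 did not pass the F-test (limma adjusted p = 0.0646), nor did Alas2 (0.0516), while the others named did. In that pool 64 probe sets had an r over 0.95. Those most like Tfrc were Hbs1l (0.997), Unc13b (0.993), Ppp6r2 (0.992), Spg7 (0.990) and Memo1 (0.990), with 52 over 0.95. At 24 h Hbs1l rose by 0.52, Memo1 by 0.56 and Unc13b by 0.21, against 1.21 for Tfrc, while Ppp6r2 and Spg7, 0.15 and 0.13 above 0 h, did not pass by limma. All of these correlations rest on 6 means.

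The wider erythroid programme was read from 7 lists of genes that left out the 8, with 113 probe sets measured for 138 symbols. By limma 94 of the 113 passed the F-test, beside 55.5% of all probe sets. Over the 5 later time points in order, 62, 37, 40, 15 and 63 were called higher than 0 h, and 9, 14, 13, 30 and 13 lower. Their median change was 0.24, 0.10, 0.13, -0.05 and 0.23, while that of all probe sets was between 0.04 and 0.07. The share called higher was 54.9% at 1 h and 55.8% at 24 h, against the 21.7% and 17.4% of all probe sets, and the share called lower at 6 h was 26.5% against 19.3%. After quantile normalization 20 were called lower and 19 higher at 6 h, or 17.7% and 16.8% beside 17.6% of all probe sets in either direction, so the difference from the background at 6 h was not seen on that scale. From 3 to 6 h 16 were called lower and 0 higher by limma, beside 2.44% and 2.34% of all probe sets. Across that step 94 of 113 means fell, beside 55.1% of all probe sets. From 6 to 24 h 58 were called higher and 5 lower, beside 10.2% and 8.68% of all probe sets.

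Most genes of the membrane and cytoskeleton list and of the reticulocyte maturation list were higher at 1 h and at 24 h. Of 20 membrane genes, 16 were higher and 0 lower at 1 h, beside 21.7% and 15.4% of all probe sets. At 6 h 4 were higher and 5 lower, beside 22.5% and 19.3%. At 24 h 16 were higher and 1 lower, beside 17.4% and 13.9%. Ank1, which encodes the ankyrin that ties band 3 to the cell skeleton, rose by 0.58 at 1 h and 1.00 at 24 h (limma adjusted p = 1.8e-09), with 6 h only 0.06 below 0 h. Kel, a blood group glycoprotein, rose by 0.23 at 1 h and fell by 0.19 at 6 h. The list also held genes on other courses, since Slc2a1, the glucose transporter, rose by 0.96 at 6 h and Slc14a1, the urea transporter, fell by 0.84 at 6 h.

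Reticulocyte maturation, the clearing of organelles and the turnover of proteins and RNA, was read from 19 genes. Of these, 17 were higher and 1 lower at 1 h, beside 21.7% and 15.4% of all probe sets. At 6 h 3 were higher and 3 lower, beside 22.5% and 19.3%. At 24 h 16 were higher and 1 lower, beside 17.4% and 13.9%. Alox15, a lipoxygenase that attacks organelle membranes in reticulocytes, rose by 0.47 at 1 h and 0.70 at 24 h, while its value 0.19 below 0 h at 6 h did not pass (limma adjusted p = 0.19). Rnf123, a ubiquitin ligase, rose by 0.55 and 0.76 at the same times, and Rnf10 by 0.24 and 0.26. Bnip3l, which clears mitochondria, had a mean of 13.17 at 0 h and did not pass against 0 h at any time. Gspt1, a translation termination factor used by all cells, fell at every time, by 0.71 at 2 h.

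Of 14 genes of haem synthesis and iron-sulphur assembly, 11 were higher and 1 lower at 1 h, beside 21.7% and 15.4% of all probe sets. At 6 h 0 were higher and 3 lower, beside 22.5% and 19.3%. At 24 h 9 were higher and 1 lower, beside 17.4% and 13.9%. Slc25a37, the mitochondrial iron importer of red cell precursors, rose by 0.42 at 1 h and 0.96 at 24 h. Iscu, the scaffold for iron-sulphur clusters, gained 0.28 at 1 h and 0.46 at 24 h.

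The 15 red cell enzymes were divided. At 1 h 7 were higher and 1 lower, beside 21.7% and 15.4% of all probe sets. At 6 h 2 were higher and 7 lower, beside 22.5% and 19.3%. At 24 h 8 were higher and 2 lower, beside 17.4% and 13.9%. Cat, which encodes catalase, rose by 0.14 at 1 h, fell by 0.12 at 6 h and rose by 0.11 above 0 h by 24 h. Bpgm, which makes the 2,3-bisphosphoglycerate that loosens oxygen from haemoglobin, rose by 0.10 at 24 h. Blvrb, a biliverdin reductase, rose by 0.46 at 1 h and 0.52 at 24 h. Aldoa, a glycolytic aldolase, rose by 0.58 at 6 h, and Gclc, which begins glutathione synthesis, fell at every time.

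The globins, the most abundant products of the reticulocyte, differed by member. Of 9 globin probe sets 3 passed the F-test, beside 55.5% of all probe sets. Against 0 h, 1 was higher at 1 h, 2 were lower at 6 h and 2 were higher at 24 h. For the same calls the shares of all probe sets were 21.7%, 19.3% and 17.4%. Hbb had a mean of 13.50 at 0 h and changed by at most 0.02, and the probe set shared by Hba1 and Hba2 had 13.60 and changed by at most 0.05. Rat globin genes include near-identical copies, so the signal of single copies is uncertain, and these levels are at the top of the table's range. The lesser globins gave Hbe1 lower by 0.60 at 6 h, Hbq1b higher by 0.14 at 1 h and lower by 0.15 at 6 h, and Hbz higher by 0.34 at 24 h.

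Among 19 genes of erythroid transcription and signalling 6 were higher and 5 lower at 1 h, and 7 higher and 6 lower at 24 h. Beside these counts, and those of the 17 iron genes, stand the shares of all probe sets called higher, which were 21.7%, 22.5% and 17.4% for 1, 6 and 24 h, and lower, which were 15.4%, 19.3% and 13.9%. Lmo2, Bcl11a and Ldb1 fell at every time after 0 h, by up to 0.91, 0.92 and 0.66. Lmo2 and Ldb1 encode partners of GATA1 in its DNA-binding complex and Bcl11a a repressor of fetal globin, and all 3 also work in white cells, with Bcl11a known from B cells. Klf3, which competes with KLF1, rose by 0.23 at 24 h, and Hemgn, a nuclear protein of red cell precursors, by 0.09. Of 17 iron genes 4 were higher and 1 lower at 1 h, 5 higher and 4 lower at 6 h, and 5 higher and 2 lower at 24 h, with a median change of 0.06 at 1 h and at 24 h beside 0.05 and 0.04 for all probe sets. The ferritin genes Fth1 and Ftl1 did not pass against 0 h at any time. Their means at 0 h were 13.48 and 13.54, near the highest mean of any probe set. Whether signal follows the amount of RNA at that level was not tested. Slc40a1, the iron exporter ferroportin, rose by 0.63 at 24 h. Aco1, an enzyme that also binds iron-responsive RNA elements, fell by 0.61. Tf, which encodes transferrin itself, rose by 1.15 at 1 h, reached 1.53 at 2 h and stayed 0.71 above 0 h at 24 h, a course unlike that of its receptor Tfrc, which was 0.15 below 0 h at 2 h.

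**Figure D4:**
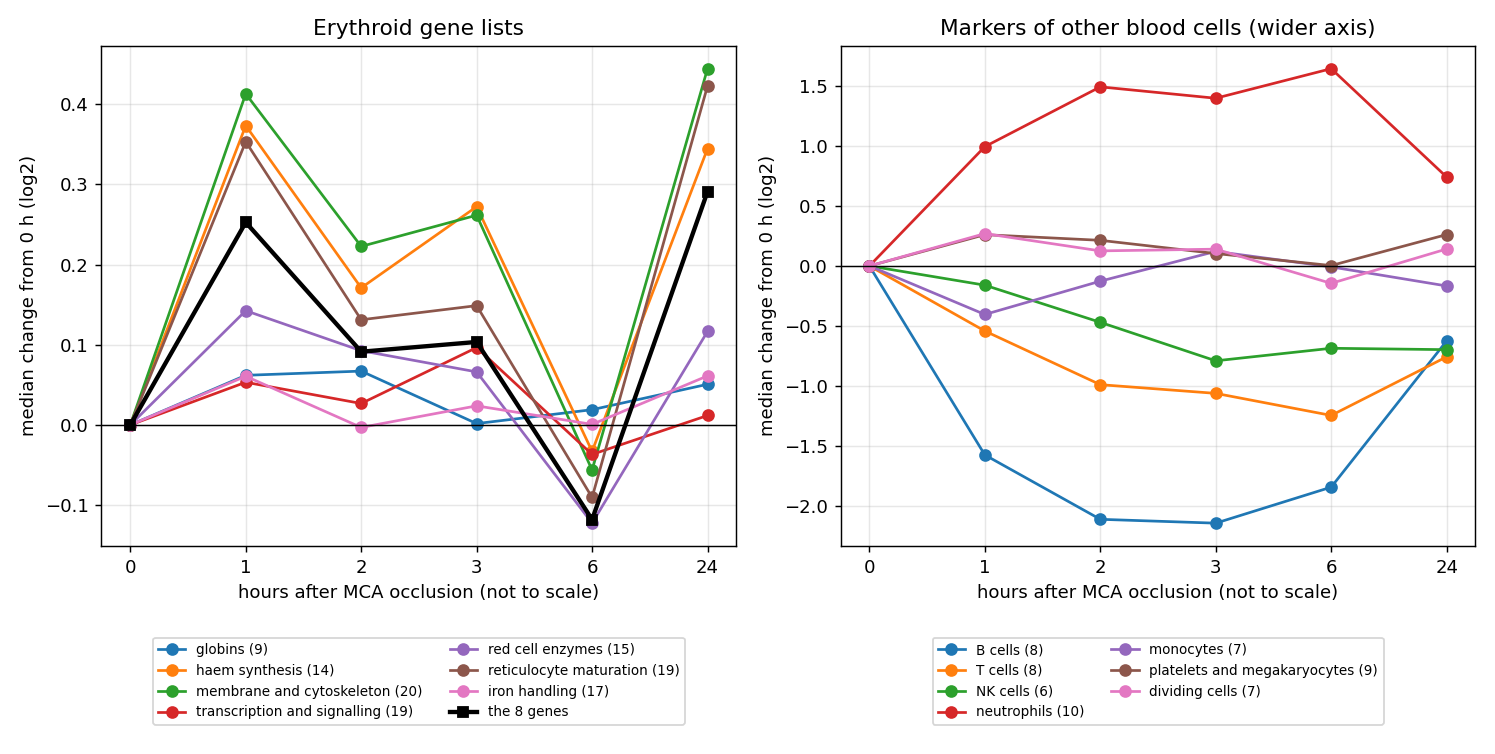
Lines show the median change from 0 h, in log2 units, of each erythroid list and of the 8 genes (black squares) on the left, and of marker lists of other blood cells on the right on a wider axis, with the number of probe sets in brackets. Membrane, haem and maturation lists peak at 1 h and at 24 h with a low at 6 h, globin and iron lists stay near 0, and neutrophil markers reach 1.65 at 6 h.

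In the same samples, the median changes of neutrophil, B cell and T cell markers were larger in size than that of the 8 genes. Of 10 neutrophil markers 9 were higher at 1 h, 9 by 6 h and 7 by 24 h, with mean levels over the list of 9.37, 10.53, 11.04 and 10.03 for 0, 1, 6 and 24 h. B cell markers were lower in 8 of 8 at each of those times, with mean levels of 10.10, 8.49, 8.35 and 9.51. T cell markers were also lower in 8 of 8, with mean levels of 10.01, 9.51, 8.79 and 9.23. At 1, 6 and 24 h, 1, 4 and 5 of 6 NK cell markers were called lower and 1, 1 and 0 higher. Monocyte markers went both ways at 6 h, with 5, 3 and 3 of 7 called lower and 0, 3 and 0 higher at those times. Neutrophil markers were highest, and T cell markers lowest, at 6 h, when the 8 erythroid genes were lowest. At 2, 3 and 6 h the median change of neutrophil markers from 0 h was 1.49, 1.40 and 1.65. That of T cell markers was -0.99, -1.06 and -1.25. For the 8 erythroid genes it was 0.09, 0.10 and -0.12, so they were not below 0 h at 2 and 3 h by this median. From 6 to 24 h 9 of 10 neutrophil markers were called lower and 8 of 8 B cell markers higher. Their part in the erythroid changes was not tested.

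Platelet and megakaryocyte markers ran closer to the red cell course. Of 9 measured, limma called 5 higher at 1 h and 5 at 24 h but 0 at 6 h, and the mean levels of the list for 0, 1, 6 and 24 h were 11.17, 11.45, 11.18 and 11.42. Itga2b, a platelet integrin, rose by 0.42 at 1 h, beside the 0.67 of Gata1, which megakaryocytes also express. Markers of dividing cells, which also make Tfrc, had mean levels of 8.05, 8.31, 8.30 and 8.29, with 4 of 7 called higher at 1 h and 2 at 24 h. At 6 h their median change was -0.15, with 2 of 7 above 0 h, 1 called higher and 1 lower. How far these cells account for the levels of Gata1 or Tfrc was not tested.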

How the data were processed

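RNA was hybridised to Affymetrix RaGene 1.0 ST arrays. The deposited table holds log2 RMA signals as a mean per time point, and the authors' SDs as other values on the same log2 scale. Per the labels, limma was among the tools used, with no version given. The 47 single-array columns carry only numbers, which the labels do not tie to a rat and time, and were not used in any step. The authors' own fold changes, p-values and FDRs were not used. Changes were differences between means, tested with moderated F-tests and contrasts (limma 3.58.1 in R 4.3.3) from means, SDs and array numbers, with a pooled 41 degrees of freedom and a prior of 5.71, adjusted over 27596 probe sets at 0.05. The code was tested on simulated data. Intervals are 95%. With 7 or 8 arrays behind a mean, their number limits the precision. Coordinates of probe sets are on rn5 and of promoters on GRCr8.

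All 8 genes were named. In each erythroid list the 3 genes with the largest change among those past the F-test and the 2 with the highest mean were named, and for likeness the 5 with the highest r to Alas2 and to Tfrc. Some genes that this rule names are not reported here. Itga2b and the order of steps shared by the 8 genes were chosen after the values were seen. The 8 genes and all lists were chosen with earlier results of these data known. The comparison of 24 h with 1 h, the fits without 6 h or 24 h in the spread and the steps with the SDs of their own times alone were added after seeing the data. Alternatives varied the moderation of the variance, the centring and normalization of means, the filter on low signal and the threshold.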

Additional observations from a re-analysis of the deposited data

How the results depend on the processing

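At an unadjusted threshold of 5e-07, 2 of the 8 genes passed the F-test in place of 6, beside 13.5% of all probe sets in place of 55.5%. With the means centred on their medians, the genes called higher numbered 3 at 1 h and 0 at 2 h, and those called lower at 6 h numbered 4. The shares of all probe sets for these calls were 12.6%, 16.1% and 21.0%. With the SDs of the compared times alone, 0 were called at 2 h, 1 from 1 to 2 h, 0 from 3 to 6 h and 5 from 6 to 24 h. In that order, all probe sets gave 21.2% higher, 3.12% lower, 0.464% lower and 5.93% higher. Quantile normalization gave 1 from 1 to 2 h, beside 3.43% of all probe sets called lower. Leaving out the 25% of probe sets with the lowest signal gave 5 from 3 to 6 h, beside 3.44% of the rest. The causes were not tested. The other erythroid genes called lower from 1 to 2 h went from 15 to 8 after centring. The other 93 recomputed counts, of the 8 genes in every comparison and of the other erythroid genes in the F-test and against 0 h, stayed within 1.5 times their values. Changes of sign were seen in 6 single values, none of which passed the test as reported: Alas2 at 1 h (-0.020) and 24 h (-0.036) and Fech at 2 h (-0.012) after centring, and Alas2 (0.021) and Fech (-0.032) at 2 h and Tfrc at 3 h (0.11) after quantile normalization. Over all probe sets, centring took the share of calls that were higher from 58.6% to 40.0% at 1 h, from 53.9% to 44.2% at 2 h, from 58.7% to 47.2% at 3 h, from 53.8% to 44.6% at 6 h and from 55.6% to 37.3% at 24 h, and from 53.1% to 64.4% from 1 to 2 h. For the other erythroid genes it went from 75.5% to 64.3% at 3 h and from 21.1% to 33.3% from 1 to 2 h, and quantile normalization took it from 33.3% to 48.7% at 6 h. No paired analysis was possible because the means and SDs carry no rat and the labels tie no single-array column to one, and the test therefore leaves out what a rat's samples share. Leaving out single arrays was not run for the same reason, and since each gene had 1 probe set, other probe sets gave no values. How far single arrays stood above background was not examined.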
